A study of Rattus norvegicus with 53 samples.

Results

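Pax4 was followed as a single gene across whole eyes of heterogeneous stock (HS) rats, an outbred population bred from inbred strains. It was taken from the deposited expression values as the gene with identifier ENSRNOG00000008020, whose start lies at position 55740627 of chromosome 4 on the Rnor_6.0 build, and it is 1 of 32576 genes. The series holds polyA RNA from 53 eyes, 1 eye per rat, and 51 eyes are analysed here as 1 group of the labelled tissue eye. Whole eyes were frozen and extraocular muscle was removed before extraction. The study's methods describe no other dissection. Some rats of the study had self-administered nicotine for another project, and its methods do not say whether the sequenced rats were among them. Nicotine exposure, age and sex are not given per sample in the labels, so these could not be compared. Levels are given as CPM, the expected count of a gene scaled to a total of 1000000 per eye, and differences and correlations are on log2(CPM + 1).

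Pax4 encodes a transcription factor with a paired domain and a homeodomain. It is best known from the embryonic pancreas, where it acts mainly as a repressor and is needed for insulin-producing beta cells to form. In the adult rat its transcript is also known from photoreceptors of the retina, where its level follows a daily rhythm. The hour at which each eye was frozen is not given in the labels.

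The sequence before the Pax4 transcript start in RefSeq is shown because it is the only stretch of the gene's own DNA that the reference tables used here hold, and because its first part recurs in other genes. It covers 250 bases before the start and 50 bases from it, at chr4:58028809-58029108 on the minus strand of the GRCr8 build, which is a later build than that of the expression values. Capitals run from the first base to the end of the last window of 20 bases that was found in at least 10 other promoters.

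Pax4: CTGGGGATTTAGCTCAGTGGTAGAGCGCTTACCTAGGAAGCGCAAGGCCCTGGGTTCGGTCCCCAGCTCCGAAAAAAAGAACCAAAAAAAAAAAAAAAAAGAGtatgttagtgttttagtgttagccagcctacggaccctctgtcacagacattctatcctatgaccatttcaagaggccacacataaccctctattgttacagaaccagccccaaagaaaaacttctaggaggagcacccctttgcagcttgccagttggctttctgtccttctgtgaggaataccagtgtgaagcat

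The capitals cover the first 103 bases, and 332 of 33468 other promoters (0.992%) shared a window with them. They read as an ID element, a short interspersed repeat of rodents that derives from a transfer RNA gene. None of the 178 windows that start beyond the capitals was found in another promoter, and 197 bases lie outside the capitals. Some short motifs were searched on both strands of these 300 bases. TAATCC, a core that the photoreceptor factor CRX binds, had 0 matches here, and 7.17% of all promoters in the table held it. The E-box CACGTG, which clock factors bind, had 0 matches, with 6.42% of all promoters holding it. The TATA box TATAAA also had 0 matches, with 14.2% of all promoters holding it. In the RefSeq gene annotation of that build, Pax4 reached 3407 bases farther upstream than the start used here. The bases shown therefore lie inside the annotated gene, and other transcripts may begin elsewhere.

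Across the 51 eyes the Pax4 level ran from 0 to 64.3 CPM, with a median of 37 CPM and quartiles of 28.7 and 43.5 CPM. The mean was 35.4 ± 12.0 CPM (SD, n = 51). A median of this size placed Pax4 above 63.6% of the 13844 genes whose median reached 1 CPM, so it was a gene of middle level among those. The rest of the 32576 genes had a median below 1 CPM. In eyes made of many tissues, fewer cells that hold the transcript and less transcript per cell cannot be told apart.

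One eye was listed at 0, and the other 50 eyes began at 15.5 CPM. Among those 50 eyes the median was 37.2 CPM, the mean was 36.1 ± 11 CPM (SD, n = 50) and the highest eye stood 4.14-fold above the lowest. There were 7 eyes from 15.5 to 20.3 CPM, 39 eyes from 23.5 to under 50 CPM and 4 eyes over 50 CPM. Apart from the eye at 0 the levels formed a nearly unbroken series, in which the wider steps on the log2 scale were 0.22 below the highest eye and 0.21 between 20.3 and 23.5 CPM.

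**Figure D1:**
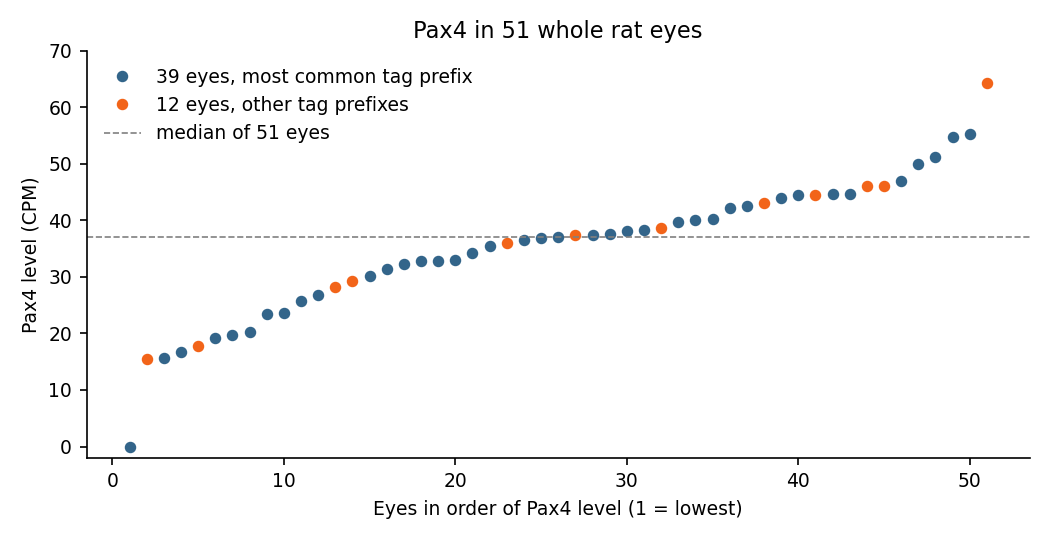
Pax4 level in CPM (vertical axis) for each of the 51 eyes in order of level (horizontal axis), coloured by the prefix of the eye's tag; the dashed line is the median of 37 CPM. One eye lies at 0 and the others rise without a wide break from 15.5 to 64.3 CPM, with both colours along the whole series.

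The depth behind these levels differed between eyes. Total counts ran from 9109084 to 42146827, with a median of 16193478, and 3 eyes stood apart with at least 34999539 where the others reached at most 23740267. In the 50 eyes above 0 the Pax4 count ran from 180 to 1610 with a median of 582. Counting alone would give an SD of 0.064 on the log2 scale, against 0.49 observed, so it made up 1.72% of the variance of log2 CPM.

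The eye at 0 had a total of 16193478 counts, which was the median depth. At that depth the lowest level of any other eye would have given 251 counts, and the median level 602. A count of 0 allows up to 3 counts, or 0.185 CPM in that library, so the lowest other eye was at least 83.8-fold higher and the median eye at least 201-fold higher. These bounds cover counting error only.

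By other measures of the library the eye at 0 lay among the rest. It had 16282 genes with at least 1 count, where the other eyes had 14717 to 16832. Its median correlation with the other eyes was 0.956, and in the others this ran from 0.888 to 0.964. The mitochondrial genome gave 5.77% of its counts, rank 46 of 51 from the lowest, against a median of 3.11% and a range of 0.418% to 8.91% in the others. It was the lowest eye for 79 of the 13844 genes, and the median of the other eyes was 145.5. It belonged to the 39 eyes with the most common tag prefix and kept its original label.

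Pax4 was the gene farthest below its usual level in that eye. It lay 5.25 below the median of the other eyes on the log2 scale, which at a count of 0 is fixed by its level in those eyes. No other of the 13844 genes lay farther, and the next lay 5.15 below. Such a gap was not unusual in size for the lowest gene of an eye, since in the other eyes the farthest drop of any gene ran from 3.75 to 12.1 with a median of 5.50. Of 9765 genes whose median reached 10 CPM, 63 were at 0 in any eye and 4 were at 0 in this one, where the other eyes had 1 to 16 with a median of 3. Pax4 was the only one of those 4 that was at 0 in no other eye; the rest were at 0 in 13, 11 (LOC103690108) and 7 eyes.

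A single eye at 0 below an otherwise well-filled range was rare. Of the 20190 genes above 0 in any eye, 550 had exactly 1 eye at 0, and of these Pax4 alone had its 0 in this eye. In this eye 16 of the 13844 genes were at 0, against a median of 29.5 and a range of 10 to 248 in the others. Of the 550, 28 had a median of at least 10 CPM, and 3, with Pax4 among them, had their next lowest eye at or above the 15.5 CPM of Pax4. The next lowest eyes of the other 2, which are not named in the tables used here, were at 25.2 and 23.1 CPM.

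Genes beside Pax4 kept their usual levels in the eye at 0. Within 0.5 Mb of its start lie 9 other gene starts, of which 6 had a median of at least 1 CPM, 2 were at 0 in every eye and 1, 20.6 kb toward lower coordinates, was low with a median of 0.335 CPM and 13 eyes at 0. None of these could be named. The nearest of the 6 toward lower coordinates, 24.9 kb away, stood at 90.1 CPM in the eye at 0, rank 22 of 51 in a range of 49.5 to 131 CPM. The next, 27 kb away, stood at 29 CPM, rank 28 in a range of 16.1 to 37 CPM. On the other side the nearest, 31.8 kb away, stood at 78.9 CPM, rank 18 in a range of 65.5 to 135 CPM. The remaining 3, at 213, 333 and 374 kb, had ranks 35, 44 and 14. All 6 neighbours therefore lay inside the range of the other eyes where Pax4 was at 0.

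**Figure D2:**
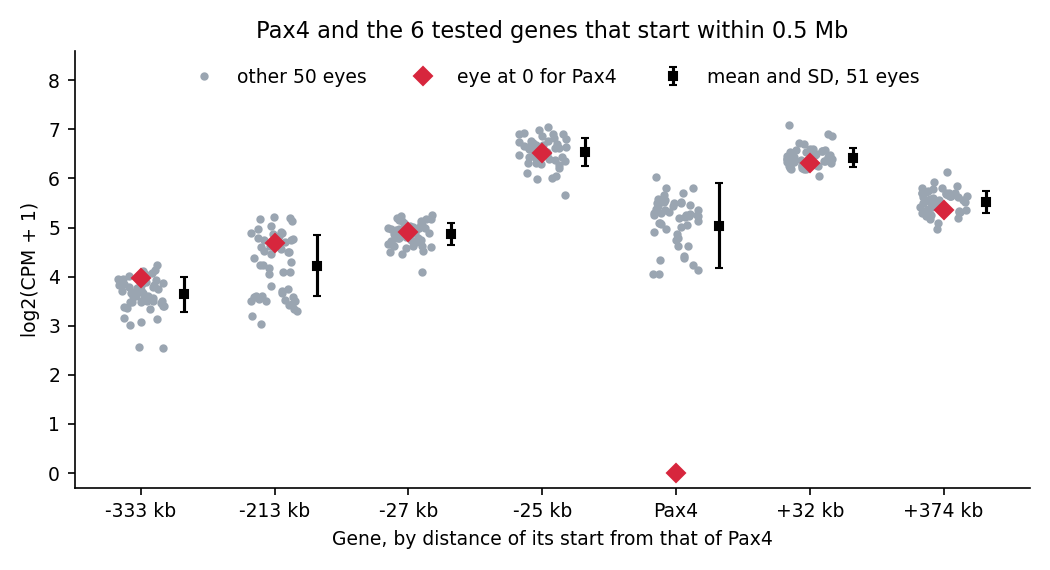
Levels as log2(CPM + 1) (vertical axis) of Pax4 and the 6 expressed genes that start within 0.5 Mb of it, ordered by distance in kb (horizontal axis); grey points are the other 50 eyes, red diamonds the eye at 0 for Pax4, and black squares with bars the mean and SD of 51 eyes. The red diamond is at the bottom for Pax4 and inside the grey points for each neighbour.

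Pax4 was more variable than most genes of its level. On log2(CPM + 1) its SD was 0.86 over 51 eyes, above that of 98% of the 200 genes nearest to it in median level, which had a median SD of 0.31. Most of this came from the eye at 0, which carried 68.8% of the squared deviations of Pax4 from its mean, where the next eye carried 2.67%. Without it the SD was 0.47, still above that of 83% of the 200 nearest genes, and the coefficient of variation of the CPM values was 30.4%. The study lists Pax4 among its cis-eQTL genes, whose expression it associated with nearby genotypes in these same eyes. Genotypes were not analysed here, so their part in this spread was not tested.

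**Figure D3:**
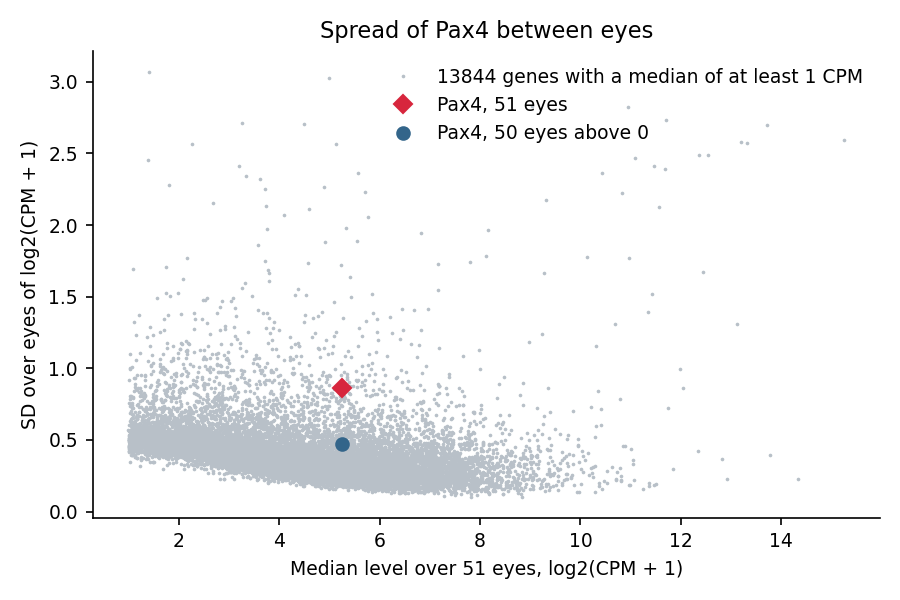
SD over eyes of log2(CPM + 1) (vertical axis) against the median level as log2(CPM + 1) (horizontal axis) for 13844 genes (grey), with Pax4 over 51 eyes (red diamond, SD 0.86) and over the 50 eyes above 0 (blue circle, SD 0.47). Both Pax4 points lie in the upper part of the cloud at their level.

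The order of the eyes by Pax4 followed the main axes of expression less than that of a median gene. The first 5 principal components of all expressed genes held 23% of the rank variance of Pax4, against 37.1% for the median gene and 10% for unrelated values. With 20 components the shares were 45.8%, 70.8% and 40%. The component most like Pax4 was the first, with a correlation of 0.37 in size. That component held 18.5% of the variance of all genes.

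The Pax4 level was compared between sets of eyes that the labels and tags define. The 39 eyes with the most common tag prefix had 34.8 ± 11.6 CPM and the 12 eyes with other prefixes 37.2 ± 13.4 CPM (SD), and the mean of log2(CPM + 1) in the former minus that in the latter was -0.16 (two-sided permutation test, p = 0.591). Without the eye at 0 the difference was -0.03 (permutation p = 0.861). The 11 eyes whose labels the authors had corrected after a genotype check had 34.9 ± 11.5 CPM and the 40 eyes that kept their labels 35.5 ± 12.2 CPM. The mean of log2(CPM + 1) in corrected minus kept eyes was 0.07 (permutation p = 0.821), of the opposite sign to the difference of the CPM means, and it was -0.06 (permutation p = 0.702) without the eye at 0, which is among the kept eyes. By these tests neither difference stood out from those between eyes shuffled across the sets.

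Of 4 measures of the libraries, none passed adjustment in its relation to Pax4. Pearson's r with log2 of the total count was 0.12 (permutation p = 0.307, adjusted p = 0.409) and Spearman's rho was 0.15 (permutation p = 0.308, adjusted p = 0.308). With log2 of the mitochondrial share r was -0.25 (permutation p = 0.0772, adjusted p = 0.309) and rho was -0.19 (permutation p = 0.178, adjusted p = 0.308), and leaving out the 2 eyes with the most extreme shares gave r = -0.20. Within the 39 and the 12 eyes of the different tag prefixes the latter r was -0.26 and -0.14. For the share of counts in the 50 highest genes r was -0.16 (permutation p = 0.238, adjusted p = 0.409), and for the number of genes with at least 1 count r was 0.00 (permutation p = 0.992, adjusted p = 0.992).

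Each of the other 13843 genes whose median reached 1 CPM was then tested for a linear relation to Pax4 over the 51 eyes with limma. No gene rose and no gene fell with Pax4 at an adjusted p under 0.05 (0% of genes in either direction), and the smallest adjusted p was 0.66. At an unadjusted p under 0.05, 515 genes (3.72%) rose and 267 (1.93%) fell. With median-of-ratios scaling in place of CPM the counts were 231 and 244, so over all 51 eyes the excess of rising genes depended on the scaling. Without the eye at 0 there were again 0 in each direction after adjustment, with 1277 (9.22%) and 727 (5.25%) before it and a smallest adjusted p of 0.134. On ranks turned into normal values, which keep the eye at 0 from dominating the fit, limma gave 0 in each direction after adjustment, with 2284 (16.5%) and 1089 (7.87%) before it and a smallest adjusted p of 0.0547. Median-of-ratios scaling was not run without the eye at 0 or on ranks.

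The size of the correlations depended on the measure, and over all eyes 0 genes exceeded 0.5 in size by Pearson's r. Pearson's r with Pax4 ran from -0.47 to 0.46 with a median of 0.05, and 61.2% of genes were above 0. Without the eye at 0 it ran from -0.58 to 0.53 with a median of 0.07, and 4 genes exceeded 0.5 in size. The eye at 0 decided much of the order of the rising genes, since of the 100 most positive genes 13 were shared between the order with that eye and the order without it. Of the 100 most negative genes 41 were shared. Spearman's rho, which limits the weight of the eye at 0, ran from -0.63 to 0.55 over all eyes, with a median of 0.08. By rho 28 genes exceeded 0.5 in size.

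**Figure D4:**
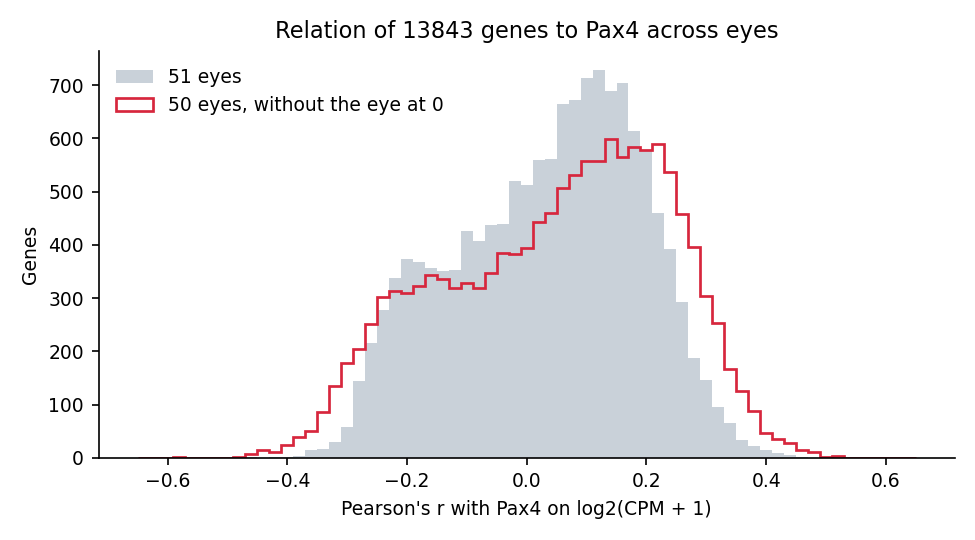
Number of genes (vertical axis) by Pearson's r with Pax4 on log2(CPM + 1) (horizontal axis) for 13843 genes, over 51 eyes (grey) and over the 50 eyes above 0 (red line). Both distributions centre just above 0, at medians of 0.05 and 0.07, and the one without the eye at 0 is wider.

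The correlations of genes near Pax4 on chromosome 4 are given as a description, without a test. Without the eye at 0, the 6 genes within 0.5 Mb had a median r of 0.16, the 35 genes from 0.5 to 5 Mb had -0.02 and the 13057 genes on other chromosomes had 0.08. The gene 27 kb away had r = 0.45 without the eye at 0, the 34th most positive of 13843, and 0.23 with it. The gene 31.8 kb away had 0.37 and 0.26. The gene 24.9 kb away, which starts close to the first of these, had 0.15 and 0.09. The other 3 of the 6, at 213, 333 and 374 kb, had -0.13, -0.16 and 0.17 without the eye at 0 and -0.16, -0.20 and 0.18 with it. In size, the median r without that eye was 0.16 within 0.5 Mb and 0.16 on other chromosomes. None of the 6 passed adjustment in limma, with or without the eye at 0.

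The gene with the most positive r, ENSRNOG00000020300, starts at position 215628785 of chromosome 1 and could not be named. Its level ran from 4.43 to 26.4 CPM with a median of 10.4 CPM, and in the eye at 0 for Pax4 it was 4.69 CPM. Its r was 0.46 (limma adjusted p = 0.660) and 0.45 without the eye at 0. The gene with the most negative r, ENSRNOG00000023337, starts at position 18396035 of chromosome 4, 37.3 Mb from Pax4, and could not be named either. Its level ran from 1.70 to 13.6 CPM with a median of 7.54 CPM, and in the eye at 0 it was 11.9 CPM, among its higher values. Its r was -0.47 (limma adjusted p = 0.660) and Spearman's rho was -0.63. Without the eye at 0 r was -0.58, and it was -0.54 when the eye with the highest Pax4 was left out as well. Its limma adjusted p was 0.134 without the eye at 0 and 0.0547 on ranks turned into normal values. Both were the smallest of any gene in those fits, and neither passed 0.05. Within the 39 eyes of the most common prefix r was -0.44 and within the other 12 eyes it was -0.76.

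Of the tested genes 706 could be named besides Pax4, and the 10 most positive of these had r from 0.34 to 0.43, all with a limma adjusted p of 0.660. Among all 13843 genes tested, of whose 100 most positive 7 could be named, these 10 had ranks from 7 to 134. Grm2, a metabotropic glutamate receptor, led them. Its level ran from 16.9 to 46.4 CPM with a median of 28.3 CPM, and its lowest eye was the eye at 0 for Pax4. Its r of 0.43 was 0.25 without that eye. Gtpbp6 and LOC100912590 had identical values in every eye and count as 1 measurement, with r = 0.42 and 0.32 without the eye at 0, where they too were at their lowest, 4.20 CPM.

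Got2, the mitochondrial aspartate aminotransferase, went the other way when the eye at 0 was left out. Its level ran from 261 to 469 CPM with a median of 355 CPM, and it was 304 CPM in the eye at 0. Its r of 0.40 was 0.48 without that eye and 0.42 when the eye with the highest Pax4 was left out as well. Slc25a10, the mitochondrial dicarboxylate carrier, had r = 0.38 and 0.39 without the eye at 0, and Slc11a2, a transporter of iron and other divalent metals, had 0.35 and 0.38. The lysosomal protease gene Ctsd had 0.35 and 0.22, Padi2, an enzyme that converts arginine to citrulline, 0.34 and 0.28, and the mRNA export gene Gle1 0.34 and 0.28. Il11ra1, a receptor for interleukin 11, had 0.34, which was 0.13 without the eye at 0.

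The 10 most negative named genes had r from -0.36 to -0.26, again with a limma adjusted p of 0.660. Among all 13843 genes tested their ranks from the lowest r ran from 15 to 344. Only 2 of the 100 most negative genes could be named. Acadsb, an acyl-CoA dehydrogenase of branched-chain amino acid breakdown, ran from 7.53 to 40.8 CPM with a median of 19.8 CPM and was 28.2 CPM in the eye at 0. Its r of -0.36 was -0.46 without that eye. Mboat1, a lysophospholipid acyltransferase, ran from 14.2 to 49.5 CPM with a median of 28 CPM and was 31.3 CPM in the eye at 0. Its r of -0.29 was -0.43 without that eye, and its rho was -0.52. Arsk, a lysosomal sulfatase, had -0.30 and -0.33, and Klhl14 -0.28 and -0.41. The others, Tmtc3, AABR07029605.1, Gpbp1, Chst10, Bloc1s6 (a subunit of a complex that builds lysosome-related organelles such as melanosomes) and Nudt4, lay between -0.28 and -0.26 with the eye at 0 and between -0.28 and -0.19 without it.

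**Figure D5:**
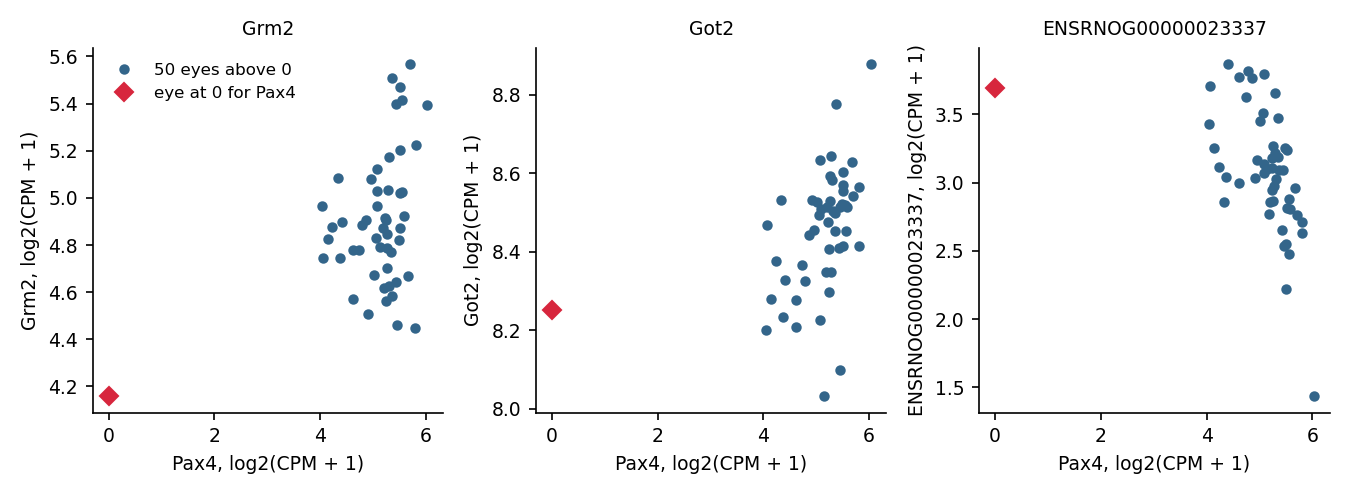
Levels as log2(CPM + 1) of Grm2, Got2 and ENSRNOG00000023337 (vertical axes) against Pax4 (horizontal axes), with 50 eyes as blue circles and the eye at 0 as a red diamond. Grm2 is at its lowest in the eye at 0 (r 0.43 with it and 0.25 without). Got2 in that eye lies inside the range of the other eyes (0.40 and 0.48), and ENSRNOG00000023337 falls across the eyes (-0.47 and -0.58).

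Lists of 250 genes were set beside Pax4, covering photoreceptors, the clock, melatonin synthesis, the Pax family, pancreatic endocrine factors, other cells of the eye, blood, stress and the mitochondrial genome. Only 12 of the 250 could be named in these data, and 11 of these, from 7 of 15 lists, were tested. None passed adjustment, and over 51 eyes none had an unadjusted limma p under 0.05, where 3.72% of all genes rose and 1.93% fell at that p. Cry2 was the 1 of the 11 with such a p without the eye at 0 and also the 1 on inverse normal values, where 9.22% and 16.5% of all genes rose. Their r ran from 0.05 to 0.23 with a median of 0.09, and all 11 were above 0, where 61.2% of all genes were. Without the eye at 0, 7 of the 11 were above 0, against 62.3% of all genes. No other Pax gene and no pancreatic or melatonin gene could be named, so their relation to Pax4 was not analysed here.

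For the retina, Guca1b, which activates guanylate cyclase in photoreceptors, was the only phototransduction gene named. Its level ran from 360 to 898 CPM in the 51 eyes and was 588 CPM in the eye at 0 for Pax4, beside a median of 571 CPM. Its r with Pax4 was 0.08, and 0.18 without the eye at 0. Cry2, a repressor of the circadian clock, ran from 124 to 320 CPM with a median of 202 CPM, and its r of 0.08 was 0.28 without the eye at 0 (limma p = 0.0477, adjusted p = 0.345). Glul, the glutamine synthetase of Muller glia, had r = 0.06, and Clu, a chaperone abundant in those cells, had 0.19.

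Of the genes of pigment cells, cornea and blood, Tyr, Lum and Hbb had an r above 0 over 51 eyes and below 0 without the eye at 0. Tyr, the enzyme that starts melanin synthesis, ran from 2.04 to 47.7 CPM and was 2.10 CPM in the eye at 0, rank 2 of 51. Its r of 0.23 was -0.05 without that eye. Lum, a proteoglycan of the corneal stroma, stood at rank 3 there, and its r of 0.12 was -0.15 without that eye. Cd68, a marker of macrophages, stood at rank 8, with r = 0.22 and 0.16. Rab38, which carries melanin enzymes to the melanosome, had r = 0.09, and the haemoglobin gene Hbb had 0.05, which was -0.02 without the eye at 0. Of the stress genes, Ddit4 had r = 0.17 and Sgk1 0.08, which were 0.16 and -0.03 without that eye. The part of cell composition in the Pax4 values was not tested.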

How the data were processed

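PolyA RNA was sequenced from HS rat eyes as paired-end reads. Per the labels and the study's methods, the authors aligned reads to Rnor_6.0 with STAR and matched samples to DNA genotypes with GATK ASEReadCounter, and the labels name RSEM. Tool versions and the gene annotation were not given in the sources used here. Deposited values were taken as log2 of the RSEM expected count plus 1. This unit was read from the values alone: with the log2 undone, 89.8% of those from 0.5 to 50 lay within 0.01 of a whole number, and totals differed between eyes. The study's methods name inverse normal transformed TPM, another unit, so every CPM here rests on that reading. The 2 eyes that the authors removed for lack of a genotype match were left out.

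The counts of each eye were scaled to a total of 1000000 and taken as log2(CPM + 1), with a pseudocount of 1, for 13844 genes whose median reached 1 CPM. The relation of each gene to Pax4 was tested with limma 3.58.1 (R 4.3.3; trend in the prior variance, except for inverse normal values) with Benjamini-Hochberg adjustment over all 13843 other genes. Permutation tests were two-sided with 100000 permutations, in Python 3.11.15 with numpy 2.4.6, scipy 1.17.1 and pandas 2.3.3. Scripts were tested on simulated data. Each eye is from a different rat, so p-values rest on the spread between rats. With 1 eye per rat, this spread includes technical variation between libraries. The tests treat the rats as independent, and relatedness among HS rats was not modelled.

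The deposited file gives no symbols. Genes were named by start position from the study's supplementary table of cis-eQTL genes (778 of 778 positions matched 1 start) and, within 500 bp, from its table of candidate genes (7 more), so named genes are mostly ones the study had selected on these same eyes. Pax4 is among the cis-eQTL genes. The RefSeq table, on GRCr8, gave no names. Named were Pax4, the 10 most positive and 10 most negative nameable genes by r, up to 4 tested members of each list, genes within 0.5 Mb of Pax4, and the extreme genes of all; further genes were chosen after their values were seen. Pax4 and the lists were chosen with earlier results of these data known. Alternatives changed the eyes used, scaling, pseudocount, filter, measure and covariates.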

Additional observations from a re-analysis of the deposited data

How the results depend on the processing

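The SD of Pax4, 0.86 on log2(CPM + 1), was 0.47 without the eye at 0 and 1.45 on the values as deposited, which keep the depth of each eye. The count of 0 rising genes became 1 on the deposited values, 1 with 5 expression components as covariates and 1 with 20, and the count of 0 falling genes became 1 with 20 components and 50 when all genes above 0 in any eye were tested. Each of those 50 genes had a median of 0 CPM, and 44 were highest in the eye at 0 for Pax4. The single rising gene was ENSRNOG00000016000 each time (limma adjusted p = 0.0159, 2.36e-07 and 4.33e-05), whose r with Pax4 was 0.44 over 51 eyes and -0.19 without the eye at 0, and the falling gene with 20 components was ENSRNOG00000046299. Both counts were 0 under the other alternatives run, which include median-of-ratios scaling, a pseudocount of 0.1, the total count as a covariate, leaving out the 3 deepest eyes, the 39 eyes of the most common prefix, and, chosen after seeing the data, inverse normal values without the eye at 0. Scaling moved the balance before adjustment from 515 rising and 267 falling to 231 and 244 with median-of-ratios. Of the 41 genes selected by rule, 31 with a symbol and Gtpbp6 and LOC100912590 counted apart, the slope on Pax4 took the other sign in 4 without the eye at 0, 9 on the deposited values, 4 with 5 components and 7 with 20 components. No paired analysis was possible because the eyes form 1 group and the labels give no replicate numbers. With 1 eye per rat, no repeat measurement of the eye at 0 could be compared.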

Other observations

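The pair of genes called in some alternatives, chosen here after their values were seen, differed only in the eye that was at 0 for Pax4. ENSRNOG00000016000 and ENSRNOG00000046299 start 157 kb apart on chromosome 2, at 208420163 and 208577146, and neither could be named. In the 50 other eyes their values were equal within 0.001 CPM, with a median of 70.5 CPM. In the eye at 0 they were 14.3 and 131 CPM. Their sum there was 145 CPM, rank 29 of 51, in a range of 51.9 to 219 CPM in the others, so the sum was at a usual level while its split between both genes was not. The correlation of the sum with Pax4 was -0.13.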
